A study of Rattus norvegicus with 59 samples.

Results

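The adult beta-globin genes and Ahsp, the gene of the chaperone of alpha-globin, were followed in rat lung as a readout of red cell RNA in the tissue. The members were picked by name from a table of lung expression, with earlier results of these data known. They were Hbb, Hbb-b1, LOC689064 and LOC100134871, which are entries of the beta-globin cluster, and Ahsp, 5 of 2887 complete gene entries. All 5 reached an FPKM (fragments scaled to transcript length and to the mapped total of the library) of at least 1 in at least 4 libraries, the filter that 1278 entries passed. Nearly all named entries lie on chromosome 1 (1714 of 1729 with a RefSeq symbol). Ranks, shares and percentages of all entries therefore refer to this table and not to all genes of the rat. The libraries came from male Fischer rats of the F344/DuCrl strain, 3 months old when bought, which breathed either air or crystalline silica, the dust behind silicosis, at 15 mg/m3 in a whole-body chamber for 6 h a day over 5 days. A piece of lung was taken at month 1, 3, 6, 9, 12 or 18 after exposure from 5 rats for each treatment and time, and from 4 rats in the 9-month air group, giving 29 air and 30 silica libraries. Air rats of the same time are the controls, and the labels do not say whether blood was rinsed from the lungs.

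Haemoglobin carries oxygen in red cells as a tetramer of alpha-like and beta-like globin chains around haem. Mature red cells of mammals have no nucleus, and young ones, the reticulocytes, still hold globin messenger RNA as they leave the bone marrow, so an organ that is sampled with its blood yields globin reads. AHSP binds free alpha-globin and keeps it soluble until a beta chain is available, and its gene is expressed chiefly in developing erythroid cells. The beta-globin cluster also holds genes used in the embryo, among them Hbe1, Hbe2 and Hbg1. In bulk tissue, fewer cells of a type and less RNA per cell cannot be told apart.

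The beta-globin entries are close relatives, and their promoters show how close. RefSeq (assembly GRCr8) holds the start region of 4 of the 5 members, under the same gene identifiers and, for 2 of them, under other symbols: LOC689064 is Hbb-bs and LOC100134871 is Hbbl1. These 4 lie side by side on chromosome 1, with a gene named Hbb-b2 between LOC100134871 and Hbb, and Ahsp lies elsewhere on the same chromosome. The 110 bases before each start are shown, read on the minus strand from 5′ to 3′, because they let the likeness be seen directly; capitals mark ATAAA and CCAAT and CACCC on either strand, so that ATTGG is CCAAT on the other strand.
Hbb (chr1:167663722-167663831): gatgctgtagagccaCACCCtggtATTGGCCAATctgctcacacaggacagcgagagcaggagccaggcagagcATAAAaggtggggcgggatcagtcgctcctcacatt
Hbb-b1 (chr1:167643521-167643630): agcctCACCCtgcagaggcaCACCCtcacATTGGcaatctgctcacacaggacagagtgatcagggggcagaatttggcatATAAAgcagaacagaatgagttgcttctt
LOC689064 (chr1:167631631-167631740): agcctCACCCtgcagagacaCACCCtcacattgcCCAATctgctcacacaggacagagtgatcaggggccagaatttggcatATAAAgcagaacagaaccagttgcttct
LOC100134871 (chr1:167650236-167650345): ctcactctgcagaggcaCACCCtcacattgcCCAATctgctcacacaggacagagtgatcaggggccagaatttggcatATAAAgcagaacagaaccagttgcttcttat

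All 4 windows hold ATAAA and CCAAT and CACCC, a combination found in 0.777% of 33469 RefSeq promoters over the same length. Singly the 3 motifs occur in 19.9%, 18.5% and 27.6% of promoters, and GATA, searched on both strands as well, occurs in 29.3% of promoters and in none of these 4 windows. In Hbb 2 CCAAT matches on opposite strands lie end to end, and Hbb-b1 and LOC689064 each have 2 CACCC matches. Over 250 bases before the start, Hbb-b1, LOC689064 and LOC100134871 were 93.3% to 95.7% identical to each other, and Hbb was 60.9% to 61.5% identical to them. Because 3 of the 4 are near copies of each other, the windows are not 4 separate matches. The share of 0.777% is a description and not a test. These are matches of letters and not measured binding. Reads from such similar genes can be shared between entries, so the split between Hbb-b1, LOC689064 and LOC100134871 is less certain than their sum.

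Beta-globin RNA was abundant among the entries of the table, whose named genes lie nearly all on chromosome 1. Hbb ranged from 738 to 2817 FPKM over the 59 libraries (median 1346) and was the most abundant entry of the table in 50 of them and 1 of the top 2 in all 59. LOC100134871 ranged from 156 to 672 FPKM (median 301), Hbb-b1 from 63.4 to 364 (median 131) and LOC689064 from 72.0 to 272 (median 122). Together the 4 beta-globin entries made up 7.64% to 24.5% (median 13.8%) of the FPKM of the entries present, counted without LOC102553223, an entry that reached 25818 FPKM in 1 library. Ahsp was far lower, at 0.714 to 38.7 FPKM (median 2.94), but its 54.2-fold range compares with 3.82-fold for Hbb and 5.75-fold for Hbb-b1. The embryonic gene Hbe1 did not exceed 0.885 FPKM and was listed at 0 in 23 libraries, and Hbe2 and Hbg1 were listed at 0 in every library.

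Hbb held most of the beta-globin sum in every library. Its share was 58.0% to 75.4% (median 70.8%), that of LOC100134871 13.4% to 22.2%, that of Hbb-b1 5.56% to 12.0% and that of LOC689064 5.41% to 10.5%. In FPKM, Hbb-b1 stood at 7.74% to 14.2% of Hbb in all libraries but 1. Within that range the 5 highest libraries were all from 3 months, air replicates 1 and 2 at 14.2% and 11.7% and silica replicates 2, 3 and 4 at 12.9%, 12.3% and 12.3%. The exception was replicate 4 of the 9-month air group, where Hbb-b1 reached 20.7% of Hbb. That library had the lowest Hbb of its group, 1013 FPKM, and the highest Hbb-b1, 210 FPKM.

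**Figure D1:**
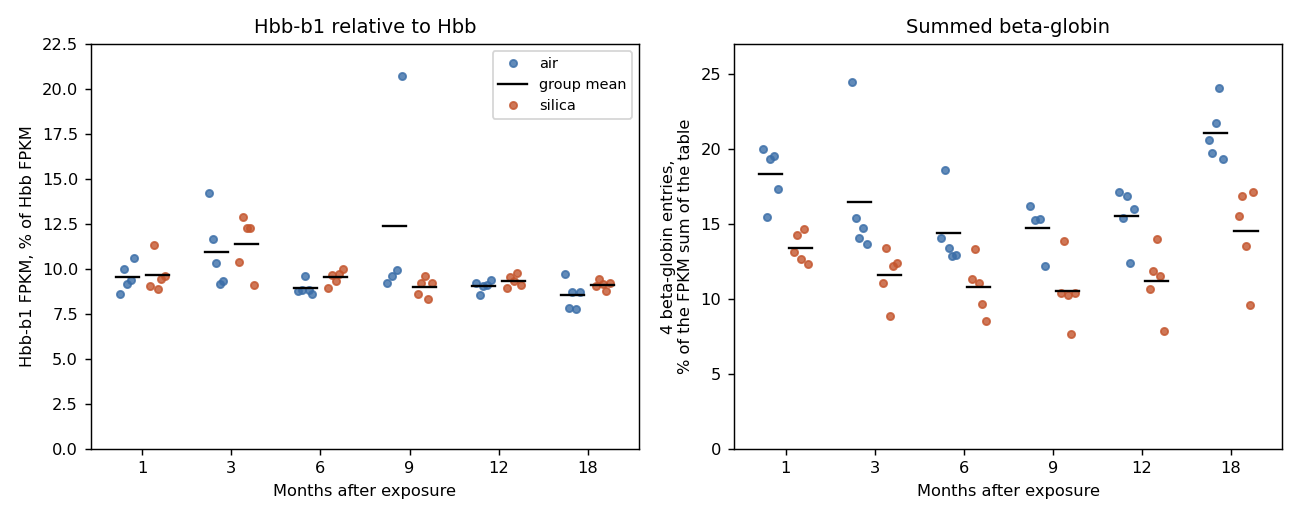
The left panel plots Hbb-b1 FPKM as a percentage of Hbb FPKM and the right panel the 4 beta-globin entries as a percentage of the FPKM sum of the table without LOC102553223, against months after exposure; each point is 1 rat lung and each black line a group mean. Hbb-b1 lies between 7.74% and 14.2% of Hbb (median 9.24%) apart from 1 air library at 20.7%, with 3-month means of 10.9% in air and 11.4% in silica, and the summed share is lower in the silica group at each time, with means of 10.5% to 14.5% against 14.4% to 21.1% in air.

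Some libraries stood apart before any comparison. Replicate 1 of the 3-month air group had the highest value of its group for all 4 beta-globin entries, with Hbb at 2567 FPKM against 1434 in the next library. Replicate 5 of the 12-month silica group had the lowest value for all 4, with Hbb at 738 FPKM against 1173 in the next. Results that rest on these libraries are also given without them. Relative depth, read from the steps between low FPKM values, spanned 5.24-fold and had little relation to Hbb or Ahsp within groups (r = 0.056 and 0.017 over 59 libraries, given as a description). Pairs of libraries within a group correlated across genes at r = 0.912 to 0.983, and none of the 116 pairs was identical.

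Beta-globin FPKM was lower in silica than in air lungs when the 6 times were averaged. FPKM is relative to the mapped total of a library, so it does not give an amount per lung. All 4 beta-globin entries fell (changes of -24.9% to -26.6% in FPKM + 0.5), Hbb not so after quantile normalization, and Ahsp did not pass the test. Hbb changed by -0.41 ± 0.078 on the log2(FPKM + 0.5) scale (SE; 30 silica and 29 air libraries; limma adjusted p = 1.17e-05). Hbb-b1 changed by -0.42 ± 0.086 (limma adjusted p = 3.85e-05), LOC689064 by -0.45 ± 0.076 (2.05e-06) and LOC100134871 by -0.44 ± 0.079 (3.98e-06). For Ahsp the value was -0.26 ± 0.21 (limma adjusted p = 0.297). Among all 1278 tested entries 57.6% were called in this comparison and 20.1% were called lower and 37.5% higher, with a median change of 0.03, so a call alone is common here; only 0.939% of entries had a lower value than Hbb. Hbb was below the median of the air group of its time in 29 of 30 silica libraries, LOC100134871 in 28, LOC689064 in 27, Hbb-b1 in 26 and Ahsp in 20. The calls of the 4 beta-globin entries held when any 1 of the 59 libraries, or any 1 of the 6 times, was left out, and without replicate 1 of the 3-month air group Hbb changed by -0.38 and Hbb-b1 by -0.37. Quantile normalization, which forces the top ranks of all libraries to the same value, gave Hbb 0.06 (limma adjusted p = 0.681) while Hbb-b1, LOC689064 and LOC100134871 stayed between -0.53 and -0.57.

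The values of Hbb, the major adult beta-globin entry here, follow time by time. At 1 month Hbb was 2023, 1451, 1863, 1959 and 1697 FPKM in air and 1284, 1569, 1393, 1491 and 1162 in silica. Only the lowest air lung fell within the silica range. The difference was -0.38 ± 0.19 (limma adjusted p = 0.227), and 8.84% of all entries were called at this time, with 0 of 5 members among them. At 3 months the air values were 2567, 1434, 1291, 1346 and 1257 FPKM and the silica values 1127, 1318, 887, 1260 and 1284. The groups overlapped, and the difference of -0.38 ± 0.19 (limma adjusted p = 0.156; 0 of 5 members called, against 18.2% of all entries) shrank to -0.19 without replicate 1 of the air group, that of Hbb-b1 from -0.31 to -0.03, that of LOC689064 from -0.32 to -0.10 and that of LOC100134871 from -0.39 to -0.17. At 6 months Hbb was 1346, 1779, 1271, 1157 and 1313 FPKM in air and 1206, 1348, 1110, 913 and 817 in silica. The silica range again reached into the air range, with a difference of -0.36 ± 0.19 (limma adjusted p = 0.160), and 0 of 5 members were called, where 27.6% of all entries were.

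Later times gave the calls at single months. At 9 months Hbb was 1489, 1616, 1392 and 1013 FPKM in air and 1034, 1428, 1061, 760 and 1086 in silica, and its difference of -0.37 ± 0.20 missed the threshold (limma adjusted p = 0.166). Of the 5 members, 3 were called lower at this time, where 30.8% of all entries were called. Hbb-b1 was 137, 155, 139 and 210 FPKM in air against 88.8, 131, 102, 63.4 and 100 in silica, and LOC689064 was 131.4, 157, 132 and 184 in air against 100.5, 130.6, 102, 74.1 and 113 in silica. For both, every silica value lay below every air value, by a narrow margin for LOC689064, which was true of 8.61% of all entries. The changes were -0.73 ± 0.22 for Hbb-b1 (limma adjusted p = 0.00852), -0.54 ± 0.20 for LOC689064 (0.0290) and -0.51 ± 0.20 for LOC100134871 (0.0494). Without replicate 4 of the air group, the library with the unusual ratio of Hbb-b1 to Hbb, none of the 3 passed (limma adjusted p = 0.0531, 0.119 and 0.0937). LOC689064 also lost its call without air replicate 2 or silica replicate 4, and LOC100134871 kept its call in 1 of the 9 fits that left out 1 library. Without the filter on low values both missed the threshold (limma adjusted p = 0.0509 and 0.0937), as did LOC100134871 at a pseudocount of 1 (0.0503).

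At 12 months Hbb was 1734, 1473, 1656, 1041 and 1598 FPKM in air and 1186, 1173, 1220, 1187 and 738 in silica. Replicate 4 of the air group lay below most silica values, so the groups overlapped, and the difference was -0.45 ± 0.19 (limma adjusted p = 0.0755). LOC689064 alone of the 5 members was called, at -0.50 ± 0.18 (limma adjusted p = 0.0410), where 23.6% of all entries were called. Without replicate 5 of the silica group it changed by -0.38 (limma adjusted p = 0.158) and Hbb by -0.31, and the LOC689064 call held in 3 of the 10 fits that left out 1 library. Without the filter on low values its adjusted p in limma was 0.0726, and with only the 2 groups of 12 months 0.130. At 18 months Hbb was 2113, 2126, 2522, 2817 and 1994 FPKM in air and 1724, 1853, 1429, 1073 and 1937 in silica. Every silica lung lay below every air lung, which was true of 1.88% of all entries. Hbb fell by 0.55 ± 0.19 on the log2 scale (limma adjusted p = 0.0408) and LOC689064 by 0.57 ± 0.18 (0.0280), 2 of 5 members, where 15.3% of all entries were called. These calls held in 5 and 6 of 10 fits that each left out 1 library. Both were lost when either of replicates 3 and 4 was left out in the air or in the silica group, and Hbb also without replicate 1 of the air group. The Hbb call was lost without the filter on low values as well (limma adjusted p = 0.325).

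**Figure D2:**
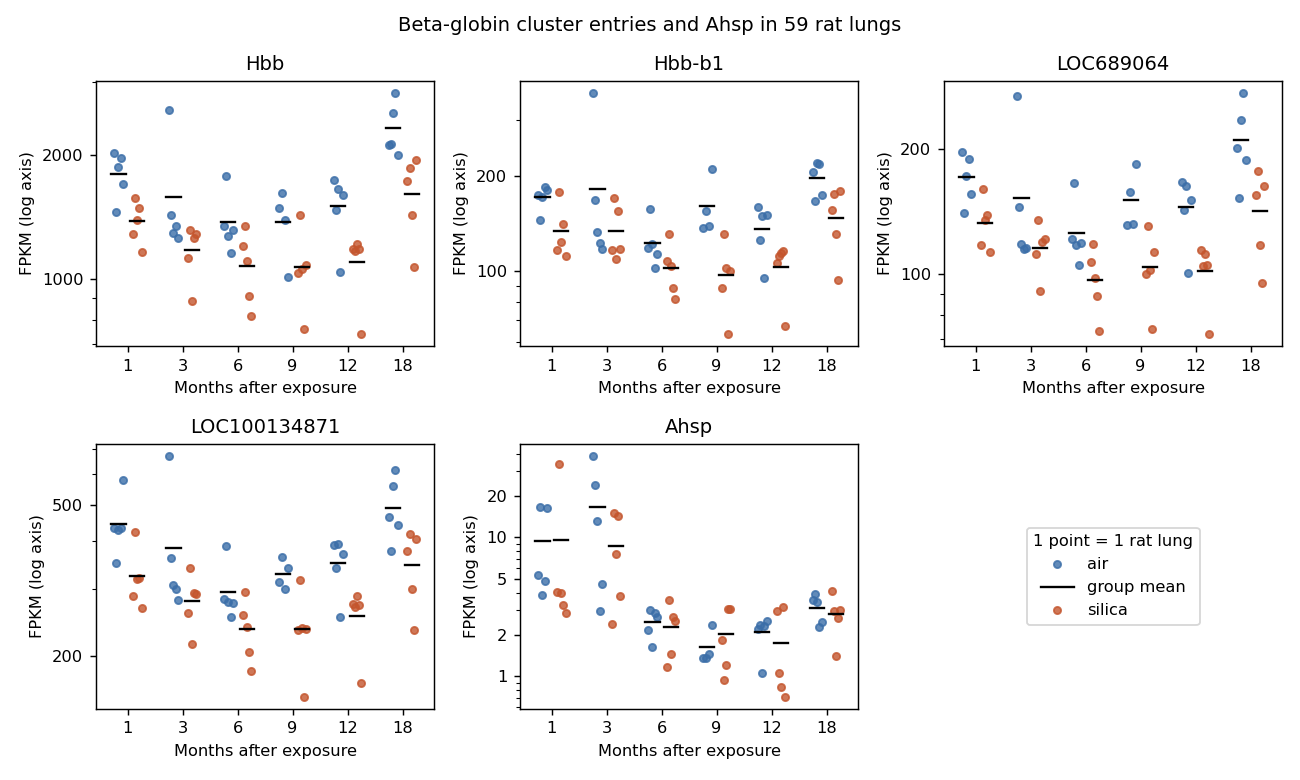
Each panel plots the FPKM of 1 member on a log axis against months after exposure, with 1 point per rat lung, air and silica side by side, and a black line at each group mean. Hbb runs from 738 to 2817 FPKM with silica means below air means at every time, and Ahsp exceeds 7 FPKM in 9 libraries, all from months 1 and 3.

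The size of the silica difference was not shown to vary with time. In the limma F test of that variation 0 of 5 members passed, where 1.33% of all entries did, with adjusted p from 0.870 for Hbb-b1 to 0.997 for LOC100134871. The value was negative at 6 of 6 times for the 4 beta-globin entries, from -0.26 for Hbb-b1 at 6 months to -0.73 for Hbb-b1 at 9 months. After quantile normalization that of Hbb was 0.25, 0.25 and 0.37 at 1, 6 and 9 months and 0.00 at 12 months. For Ahsp it was negative at 5 of 6 times, between -0.66 at 3 months and 0.16 at 9 months, and none of these was called (limma adjusted p = 0.396 to 0.875). The Ahsp value turned positive without silica replicate 1 at 6 months (0.017) and without silica replicate 3 at 18 months (0.033).

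**Figure D3:**
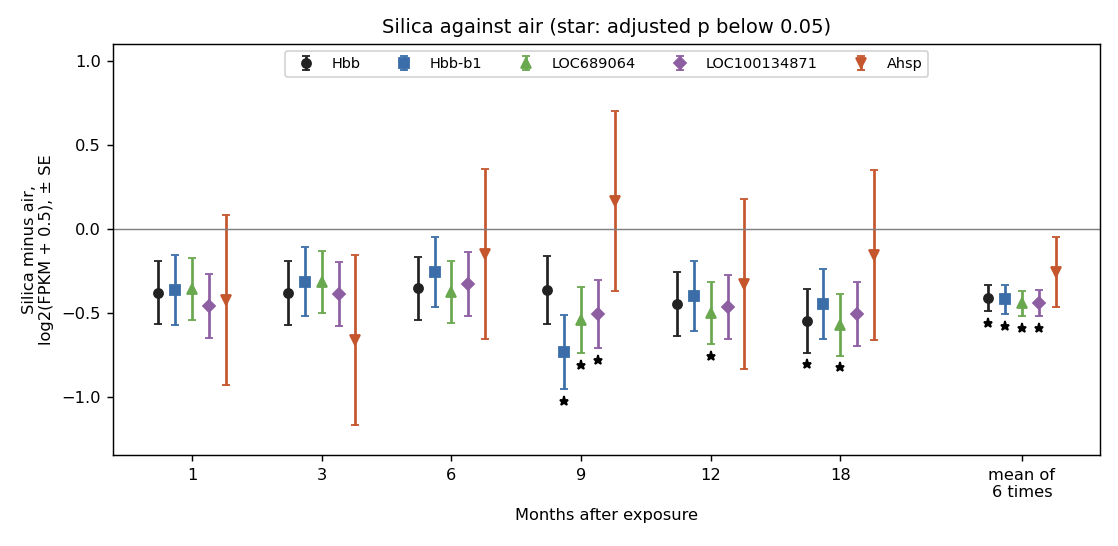
The plot shows the silica minus air difference on the log2(FPKM + 0.5) scale with its SE for each member, by months after exposure and for the mean of the 6 times; a star marks an adjusted p below 0.05 in limma. With FPKM as deposited the beta-globin points lie below 0 throughout, with the mean at -0.41 to -0.45 (Hbb 0.06 after quantile normalization), and the error bars of Ahsp are the widest.

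Among air lungs, beta-globin differed between times. Hbb, LOC689064, LOC100134871 and Ahsp, 4 of 5 members, passed the limma F test over the 6 air groups (adjusted p = 0.00981, 0.0292, 0.0206 and 3.94e-04), where 28.9% of all entries did, and Hbb-b1 did not (0.0739). Without the filter on low values Hbb (limma adjusted p = 0.380) and LOC689064 (0.0533) did not pass, and after quantile normalization Hbb (0.537), LOC689064 (0.252) and LOC100134871 (0.653) did not. Without replicate 1 of the 3-month air group Hbb-b1 passed as well (limma adjusted p = 0.0157). LOC689064 lost its call without air replicate 4 at 6 months or air replicate 3 or 4 at 18 months, and LOC100134871 without the last of these. Hbb averaged 2314 ± 344 FPKM (SD, n = 5) in air at 18 months, 1799 ± 230 at 1 month, 1579 ± 556 at 3 months, 1500 ± 274 at 12 months, 1377 ± 260 (n = 4) at 9 months and 1373 ± 238 at 6 months. The 12 groups ran from that 18-month air mean down to 1074 ± 238 FPKM in silica at 9 months. Ordered by mean, only the gap of 516 FPKM between the first and the next group exceeded both SDs, and the ranges of neighbouring groups overlapped all along the order.

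The end points did not differ beyond the test. In air at 18 months against air at 1 month 0 of 5 members were called, where 21.8% of all entries were, with Hbb at 0.36 ± 0.19 (limma adjusted p = 0.176) and Ahsp at -1.21 ± 0.51 (0.0772). Ahsp passed without replicate 3 of the 1-month air group (limma adjusted p = 0.0488). Over the 6 silica groups, a test added after the air groups had been seen, Ahsp passed (limma adjusted p = 0.00903) and the 4 beta-globin entries did not (0.0597 to 0.0834), 1 of 5 members where 26.2% of all entries did. All 4 beta-globin entries passed there without replicate 4 of the 18-month silica group (limma adjusted p = 0.0163 to 0.0279). Hbb and LOC100134871 also passed without silica replicate 2 at 6 months or replicate 3 at 12 months, and these and Hbb-b1 without replicate 2 at 9 months. Age of the rats, time since exposure and time of collection cannot be told apart in these comparisons, and the labels give no batch.

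The highest Ahsp values came from 1 and 3 months. At 1 month it was 5.33, 16.6, 3.85, 4.83 and 16.3 FPKM in air and 4.03, 34.0, 3.97, 3.29 and 2.85 in silica. At 3 months it was 38.7, 23.8, 13.1, 2.94 and 4.61 in air and 2.37, 15.1, 7.57, 14.3 and 3.77 in silica. High and low lungs occurred side by side within each of these 4 groups: 9 of the 20 libraries, 5 air and 4 silica, were above 7 FPKM, and the other early libraries did not exceed 5.33. At 6 months Ahsp was 2.14, 2.98, 1.63, 2.88 and 2.69 FPKM in air and 1.16, 3.56, 1.45, 2.67 and 2.52 in silica. At 9 months it was 1.36, 1.37, 1.45 and 2.35 in air and 1.82, 0.937, 1.22, 3.03 and 3.04 in silica. Air and silica ranges overlapped at both times, and no library reached 4 FPKM. At 12 months the values were 2.18, 2.34, 1.05, 2.29 and 2.51 FPKM in air and 2.94, 1.05, 0.838, 3.16 and 0.714 in silica. At 18 months they were 3.57, 3.905, 3.42, 2.27 and 2.46 in air and 4.15, 2.97, 1.40, 2.63 and 3.00 in silica. All 39 libraries from month 6 on were at or below 4.15 FPKM, and their median of 2.35 compares with 5.08 for the 20 earlier ones. By mean, the 12 groups ran from 16.6 ± 14.8 FPKM (SD, n = 5) in air at 3 months to 1.63 ± 0.479 (n = 4) in air at 9 months, and no gap between neighbours exceeded both SDs. Leaving out replicate 2 of the 1-month silica group, at 34.0 FPKM, moved the Ahsp difference at that time from -0.43 to -1.05 (limma adjusted p = 0.168), and leaving out replicate 1 of the 3-month air group moved that at 3 months from -0.66 to -0.23.

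Within groups the beta-globin entries varied together from lung to lung, and Ahsp was less closely related to them. After the group mean was taken off each log2(FPKM + 0.5) value, the 6 pairs of beta-globin entries had Pearson r of 0.829 to 0.937 and Spearman rho of 0.795 to 0.921 over 59 libraries. Their permutation p was 1e-05, the smallest that 100000 permutations can give, and all 6 stayed far below 0.05 when adjusted over all 10 pairs of members. Without the 2 libraries farthest from the median r was 0.777 to 0.916, and shared reads between entries can add to these values. These 2 were picked anew for each pair by the beta-globin entry named first. In the pairs that follow they were not picked by Ahsp. Hbb and Ahsp had r = 0.156 (permutation p = 0.236, adjusted 0.236) and rho = 0.042 (permutation p = 0.753), with r = 0.003 without the 2 libraries farthest from the median. For Hbb-b1 and Ahsp r was 0.420 (permutation p = 0.0012, adjusted 0.00171) and rho 0.280 (permutation p = 0.0323, adjusted 0.0462), and r was 0.338 without the 2 libraries farthest in Hbb-b1. LOC100134871 and Ahsp had r = 0.346 (permutation p = 0.0074, adjusted 0.00925) with rho = 0.238 (permutation p = 0.0688), and r = 0.297 without 2 libraries. LOC689064 and Ahsp had r = 0.269 (permutation p = 0.0404, adjusted 0.0449) with rho = 0.159 (permutation p = 0.229), and r = 0.163 (permutation p = 0.224) without 2 libraries, so that relation rests on them. A split by time that was not planned follows where the high Ahsp values lay. For Hbb-b1 and Ahsp r was 0.674 in months 1 and 3 (20 libraries, permutation p = 7.8e-04). In months 6 to 18 it was 0.043 (39 libraries, permutation p = 0.795). Ahsp did not exceed 4.15 FPKM in those later months, and so narrow a range can itself lower r. In the same 20 early libraries r with Ahsp was 0.633 for LOC100134871 (permutation p = 0.00218), 0.473 for LOC689064 (0.033) and 0.369 for Hbb (0.107). The difference between these 2 periods was not tested.

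Other genes tracked Ahsp more closely than the globins did. With Ahsp as a covariate beside the group means, a test added after Ahsp had been seen to part from the globins, limma called 6 of 1273 entries (0.471%), all positive. They were Plekhb1, Gp6, Cdr2, Sox6, Sirt2 and Tmem86b, named after their values were seen. Gp6 encodes the collagen receptor of platelets, Sox6 a transcription factor with a part in red cell maturation and Sirt2 a deacetylase. Over 59 libraries with group means removed, r with Ahsp was 0.733 for Gp6 (limma adjusted p = 2.22e-06), 0.730 for Plekhb1 (1.76e-06), 0.681 for Cdr2 (2.25e-05), 0.634 for Sox6 (5.79e-04), 0.566 for Sirt2 (0.0063) and 0.506 for Tmem86b (0.0446). In months 1 and 3 r was 0.918 for Plekhb1, 0.900 for Cdr2, 0.878 for Gp6, 0.828 for Sox6, 0.745 for Sirt2 and 0.549 for Tmem86b, and in months 6 to 18 it was -0.03 for Plekhb1, -0.04 for Cdr2, -0.03 for Gp6, 0.27 for Sox6, 0.298 for Sirt2 and 0.455 for Tmem86b. This is the same unplanned split, with a narrower range of Ahsp in the later months. The Tmem86b call was lost in 29 of 62 alternatives and that of Sirt2 in 2. Of the 9 libraries highest in Ahsp, 8 were among the 9 highest for Plekhb1 and for Gp6, and 6 for Cdr2. For Sox6 and for Sirt2 the number was 5, for Hbb-b1 3 and for Hbb 1. All but the globins were picked for their relation to Ahsp in these same libraries, so their overlap is a description and no separate evidence. Gp6 is low: it passed the filter on low values through 4 libraries at 1.36, 1.41, 1.995 and 2.26 FPKM, all of them high in Ahsp, and its early maximum of 2.26 compares with 0.374 in months 6 to 18. Plekhb1 was 10.3 FPKM or more in 3 libraries, those with the 3 highest Ahsp values, and did not exceed 5.79 FPKM in months 6 to 18.

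**Figure D4:**
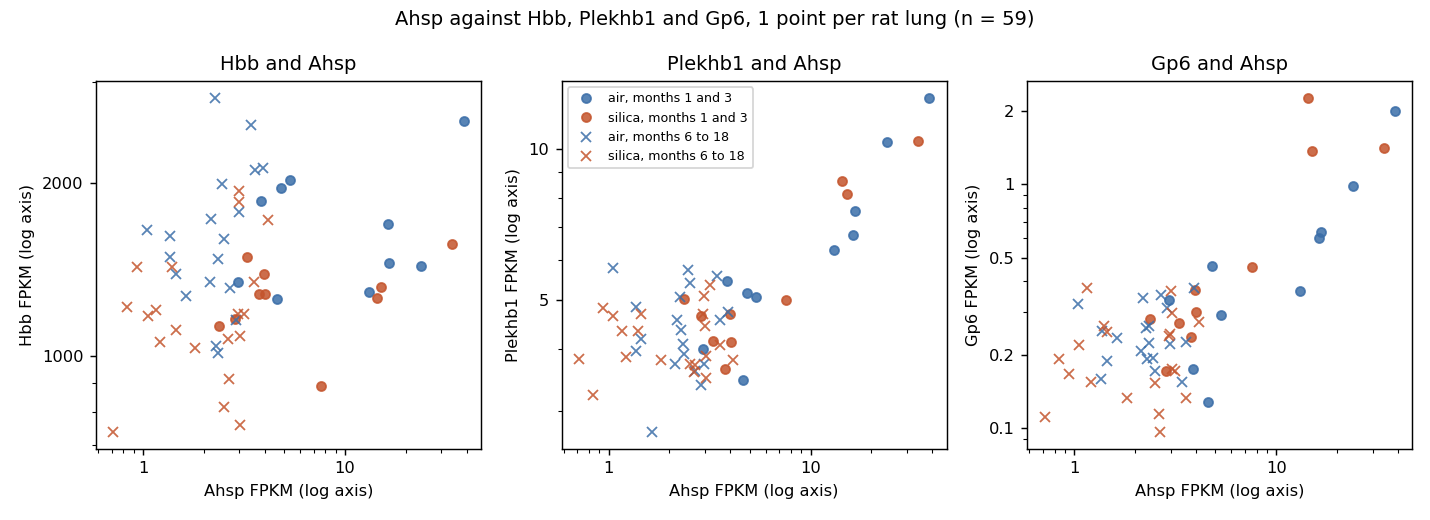
Each panel plots 1 gene against Ahsp, both in FPKM on log axes, with 1 point per rat lung; circles are months 1 and 3, crosses months 6 to 18, and colour gives air or silica. Libraries high in Ahsp are also high in Plekhb1, up to 12.6 FPKM, and in Gp6, up to 2.26 FPKM, whereas Hbb covers much of its range at both low and high Ahsp. Plekhb1 and Gp6 were picked for their relation to Ahsp in these libraries.

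The genes that tracked Hbb within groups were others. With Hbb as the covariate limma called 18 of 1273 entries (1.41%), 15 positive and 3 negative, and 1 of them, Cdr2, was also called with Ahsp. Among the named genes with the highest r with Hbb over 59 libraries were Ppp1r12c, a myosin phosphatase subunit (r = 0.583, limma adjusted p = 0.0236), Tm6sf1 (0.559), Trim3 (0.540), Gga2, a Golgi sorting adaptor (0.529), Cdipt, the phosphatidylinositol synthase (0.511), Zfp444 (0.511) and Vwa3a (0.496), all called. Among the lowest were Anpep, aminopeptidase N (r = -0.475, limma adjusted p = 0.0465), Snrnp70 (-0.424), Htra1 (-0.422) and Iqgap1 (-0.418), of which the last 3 were not called. None of these values approaches the 0.829 to 0.937 seen among the beta-globin entries. Ppp1r12c had r = 0.351 with Hbb in months 1 and 3 and 0.683 in months 6 to 18. Taking Hbb as a covariate lowered the number of entries called in the mean of the 6 silica differences from 732 to 581 of 1273. Of these, 542 were called in both fits. Hbb itself fell with silica, so this covariate overlaps with the difference being tested, which can lower the number by itself. The part of blood content in these calls was not tested.

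The tested genes of the red cell list did not fall with the beta-globins, and whether their lung RNA came from red cells was not tested. Of a list of 56 erythroid and red cell genes beside the members 6 were in the table and 3 passed the filter, and all 3 rose in the mean of the 6 silica differences, where 37.5% of all entries rose. They were Uros, a haem synthesis enzyme (0.21 ± 0.053, limma adjusted p = 4.81e-04), Blvrb, a biliverdin reductase (0.16 ± 0.035, 8.26e-05), and Bcam (0.09 ± 0.027, 0.0060). Bcam, the Lutheran adhesion molecule, is also made in epithelium. It stood at -0.05 when libraries were scaled to a common sum and at -0.04 after quantile normalization. The Blvrb call was lost under these same 2 scalings (limma adjusted p = 0.474 and 0.122). Sox6, picked above for its relation to Ahsp and not on that list, fell by 0.28 ± 0.060 in the mean (limma adjusted p = 7.72e-05). Over all entries 20.1% were called lower in that comparison. By month Sox6 was called at 3 months (-0.52, limma adjusted p = 0.00885) and 18 months (-0.50, 0.0133). At 1, 6, 9 and 12 months it stood at -0.06, -0.36, -0.10 and -0.13, not called. Its level was low, with a mean of 0.82 FPKM. Of 24 genes of haem and iron handling 5 were tested. In the mean 2 of these were called higher and 1 lower, close to the 37.5% and 20.1% of all entries. Ftl1, the ferritin light chain that stores iron, rose by 0.74 ± 0.067 (limma adjusted p = 1.37e-13), as did Blvrb, and Cd163l1, a relative of the haemoglobin scavenger receptor, fell by 0.29 ± 0.091 (0.00582), a call lost without month 12 (0.0972) or month 18 (0.134). Hpx, the haem carrier haemopexin, stood at 0.40 ± 0.18 (limma adjusted p = 0.0506), which passed in 25 of 73 alternatives (0.0366 at a pseudocount of 0.1), and Hamp, the iron hormone hepcidin, at 0.09 ± 0.19 (0.738). None of the tested genes of the red cell list and the haem and iron list was called for association with Hbb or with Ahsp within groups. Over all 1273 entries 1.41% were called with Hbb and 0.471% with Ahsp, so none among so few genes is close to these shares. Sox6, on neither list, was called with Ahsp, as given above.

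Markers of other cells also differed between silica and air lungs, and their part in the beta-globin result was not tested. Against the 37.5% of all entries that rose and the 20.1% that fell in the mean of the 6 silica differences, 8 of 14 tested leukocyte markers rose, among them the neutrophil gene Cd177 (1.996 ± 0.093), and 3 fell, Itgad (-0.22), Spn (-0.11) and Fcgrt (-0.09), with summed levels of 97.3 to 143 FPKM in air libraries and 107 to 193 in silica libraries. All 6 tested endothelial markers fell, among them Ehd2 (-0.25 ± 0.027), with a median of -0.28 and sums of 91.7 to 113 FPKM in air and 65.6 to 104 in silica. Of 6 markers of alveolar and airway epithelium 5 rose, with sums of 226 to 277 FPKM in air and 245 to 482 in silica, which also shows that the lung markers present were expressed. The only platelet marker in the table, Gp6, was at -0.02 ± 0.11 (limma adjusted p = 0.878). Of 5 tested heart and muscle markers 1 fell, Cox8b (-0.49 ± 0.18, limma adjusted p = 0.0180), with sums of 6.48 to 136 FPKM in air and 4.16 to 183 in silica. Other defining red cell genes, Alas2, Slc4a1 and the alpha-globin genes, were not analysed here.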

How the data were processed

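The table deposited by the authors holds 1 column per library in FPKM, and 0 columns were left unmatched to the labels. Per the submitters' processing notes the tools included Cufflinks 2.1.1, TopHat2 2.0.9, Bowtie2 2.2.9, Trimmomatic 0.35 and bcl2fastq 2.19, and per the labels' protocols total RNA was depleted of ribosomal RNA and made into stranded libraries. For the genome build and annotation, a name is not given in the sources used here. Entries numbered 2888, the last of them incomplete and left out, and nearly all named entries lie on chromosome 1 (1714 of 1729 with a RefSeq symbol), and any share of FPKM is relative to those entries.

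FPKM are not counts and depth is not given directly. Relative depth came from the spacing of 1997 low values of 261 entries, of which 63.7% lay within log2 0.1 of 1 step. Testing required 4 or more libraries at an FPKM of 1 or higher and used limma (version 3.58.1, R 4.3.3) on the log2 of FPKM + 0.5, which understates changes of low genes. All 12 groups of 59 libraries entered 1 fit with an intensity trend and no covariate, and Benjamini-Hochberg adjustment covered the 1278 tested entries, with a threshold of 0.05. The fit was tested on simulated data. F tests took the 6 air groups, the 6 silica groups and the variation of the silica difference. Associations used log2 of Hbb or Ahsp as a covariate over 1273 entries, and correlations used permutation in Python 3.11.15, all two-sided. Sums, shares and ratios carry no test. As each library is 1 rat, p-values reflect variation from rat to rat.

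Genes were named by rule: the 5 members, the tested genes of the red cell and of the haem and iron lists, and the 8 highest and 5 lowest r with Hbb among genes that have a symbol and average 1 FPKM or more, of which 2 are not reported here. Members and lists were chosen with earlier results of these data known. Alternatives were other pseudocounts, filters, scalings and fits, and leaving out each library or time. Promoters are from RefSeq, GRCr8, used for letters and order only.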

Additional observations from a re-analysis of the deposited data

Results flagged for a closer look

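In 13 of the 60 sets formed by 1 member in 1 group, the highest or lowest library lay further from the rest than Dixon's test allows. Chance gives about 1 in 20 for independent sets. These sets were not independent, because the beta-globin entries varied together and the same libraries recur, so an excess over chance was not tested. The 3-month air replicate 1 was far above its group for Hbb (2567 FPKM), Hbb-b1 (364), LOC689064 (267) and LOC100134871 (672). The 12-month silica replicate 5 was far below its group for Hbb (738), Hbb-b1 (67.3), LOC689064 (72.0) and LOC100134871 (170.2). The 6-month air replicate 2 was high for LOC689064 (166) and LOC100134871 (388). For Ahsp the 1-month silica replicate 2 was high (34.0 FPKM), as was the 9-month air replicate 4 (2.35), and the 12-month air replicate 3 was low (1.05).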

How the results depend on the processing

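The falls of Hbb-b1, LOC689064 and LOC100134871 in the mean of the 6 silica differences were called in every alternative run, and that of Hbb in all but quantile normalization, where Hbb was 0.062 in the mean, 0.25 at 1 month, 0.25 at 6 months, 0.37 at 9 months, 0.00 at 12 months and -0.25 at 18 months, and its air F test gave adjusted p = 0.537. That scaling assigns fixed values to the top ranks, which Hbb held in every library. It also gave Hbb-b1 -0.063, LOC689064 -0.23 and LOC100134871 -0.23 in air at 18 months against 1 month, and Bcam -0.038. Scaling to a common sum, which moved the median of all entries from 0.03 to -0.09, gave Hbb -0.58 at 3 months, -0.50 at 9 months and -0.56 at 12 months, all called, and Bcam -0.055. Median centring gave Hbb -0.48 at 12 months, called. Without a filter the 18-month Hbb change of -0.55 had adjusted p = 0.325 and the air F test of Hbb 0.380. With only the 2 groups of 18 months it was -0.55 with adjusted p = 0.101. Apart from the construction of quantile normalization, the cause was not tested.

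With 1 library left out, Hbb ranged from -0.57 to -0.31 at 12 months and from -0.63 to -0.41 at 18 months. Ahsp ranged from -0.31 to 0.017 at 6 months, with 0.017 without silica replicate 1, and from -0.29 to 0.033 at 18 months, with 0.033 without silica replicate 3. Gp6 ranged from -0.071 to 0.026 and Hamp from -0.0011 to 0.16 in the mean, and the slope of Hamp on Ahsp from -0.10 to 0.0073. Gp6 was 0.00013 without month 6 and 0.00097 without month 12, and Hamp -0.042 without month 12. Entries associated with Hbb numbered 18, 11 after median centring and 9 with Hbb-b1 as the covariate, where Cd163l1 had a slope of -0.034. Those associated with Ahsp numbered 6, and 3 with a mean FPKM of at least 1. In months 6 to 18 r was -0.068 for Hbb and Ahsp and -0.033 for LOC100134871 and Ahsp. No paired analysis was possible because the labels give no replicate number shared between groups: numbers were assigned in accession order.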
